A study of Mus musculus with 70 samples.

Results

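The 8 genes described here encode surface receptors that restrain lymphocytes or mark their late differentiation, namely Klrg1, Cd200r1, Tigit, Cd96, Pdcd1, Lag3, Havcr2 and Btla. They were listed by name, matched by symbol to the Ensembl gene IDs of the count table, and are 8 of the 13191 protein-coding genes tested. RNA-seq was performed on regulatory T cells (Tregs) sorted from the spleen, blood, colon, lungs, back skin and abdominal visceral adipose tissue (VAT) of 5 male mice aged 16.6 to 18.6 weeks. All groups carried the same Foxp3YFP-cre allele (Foxp3tm4(YFP/icre)Ayr), a YFP and Cre fusion at the Foxp3 locus that makes Foxp3-expressing cells YFP+, and no group lacked it. Activated (CD44hi) Tregs of every tissue were split by ST2 into ST2+ and ST2- populations, and a resting population (ST2- CD44lo CD62L+) was taken in spleen and lungs alone, which gave 14 groups of 5 libraries, 1 per mouse. The 67 of 70 libraries with over 1,000,000 counts were kept. This left 4 libraries of blood ST2+, 3 of colon ST2+ and 5 of every other group.

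ST2 is the receptor for the alarmin IL-33 and marks a tissue-associated subset of activated Tregs. Inhibitory receptors bind ligands on neighbouring cells and dampen activation, in many cases through tyrosine motifs in their tails that recruit phosphatases. Tregs of peripheral tissues are known to carry several of these receptors, and KLRG1 is widely used as a marker of terminally differentiated effector Tregs.

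The kept libraries held 1304560 to 2759926 counts (median 2039002) from 55 to 220 sorted cells. Values are CPM, counts scaled to a total of 1,000,000 over the tested genes and by TMM factors, given as mean ± SD over mice. Il1rl1, which encodes ST2, lay at 228.5 to 1672 CPM in the ST2+ libraries and at 0 to 60.8 CPM in the ST2- CD44hi libraries outside skin, but reached 24.5 to 205.6 CPM in skin ST2- libraries. Foxp3 lay at 109.4 to 427.9 CPM in every kept library. Markers of other cells were not evenly spread. The summed level of 12 myeloid genes was 1250 to 1441 CPM in colon ST2+ libraries, where all 12 had counts, 34.2 to 296.6 CPM in colon ST2- libraries, 117.5 to 451.1 CPM in VAT ST2+ libraries and 12.3 to 124.5 CPM in VAT ST2- libraries. The sum of 5 mast cell and basophil genes was 0 to 585.9 CPM in skin ST2+ libraries (median 0) and 0 in skin ST2- libraries. The sum of 5 CD8 T and NK cell genes was 27.1 to 159.4 CPM in VAT ST2+ and 12.8 to 85.4 CPM in VAT ST2- libraries. The sum of 9 parenchymal genes was 651.8 to 1598 CPM in colon ST2+ and 131.5 to 1152 CPM in colon ST2- libraries. It was 165.5 to 820.5 CPM in skin ST2+, 156.0 to 1234 CPM in skin ST2- and 210.5 to 338.4 CPM in spleen ST2+ libraries. The values given without libraries that held markers of other cells rest on Csf1r, Ncr1, Cd8a and Cpa3, not on parenchymal genes. Beyond those values, the part of other cells in the receptor values of colon and skin was not tested.

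The 8 receptors fell into 3 kinds of pattern over the 14 groups. Klrg1, Cd200r1, Tigit and Pdcd1 were low in resting Tregs and high in most CD44hi groups. Cd96 and Btla were about as high in resting as in activated Tregs of spleen and lungs, and were lower in some peripheral tissues. Lag3 and Havcr2 were low in most groups, with Lag3 highest in spleen and colon and Havcr2 highest in skin and colon. On a per-length scale, in CPM per kb of exon, Klrg1 had the highest mean level of the 8 in 5 of the 6 ST2+ groups (340.8 ± 42.5 in spleen to 670.8 ± 153.4 in VAT), whereas in resting spleen Tregs Cd96 led at 218.9 CPM per kb and Klrg1 stood at 0.324. In skin ST2+ Tregs, Tigit had the highest mean level, 494.7 ± 96.9 CPM per kb, followed within that spread by Klrg1 at 435.9 ± 91.9.

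**Figure D1:**
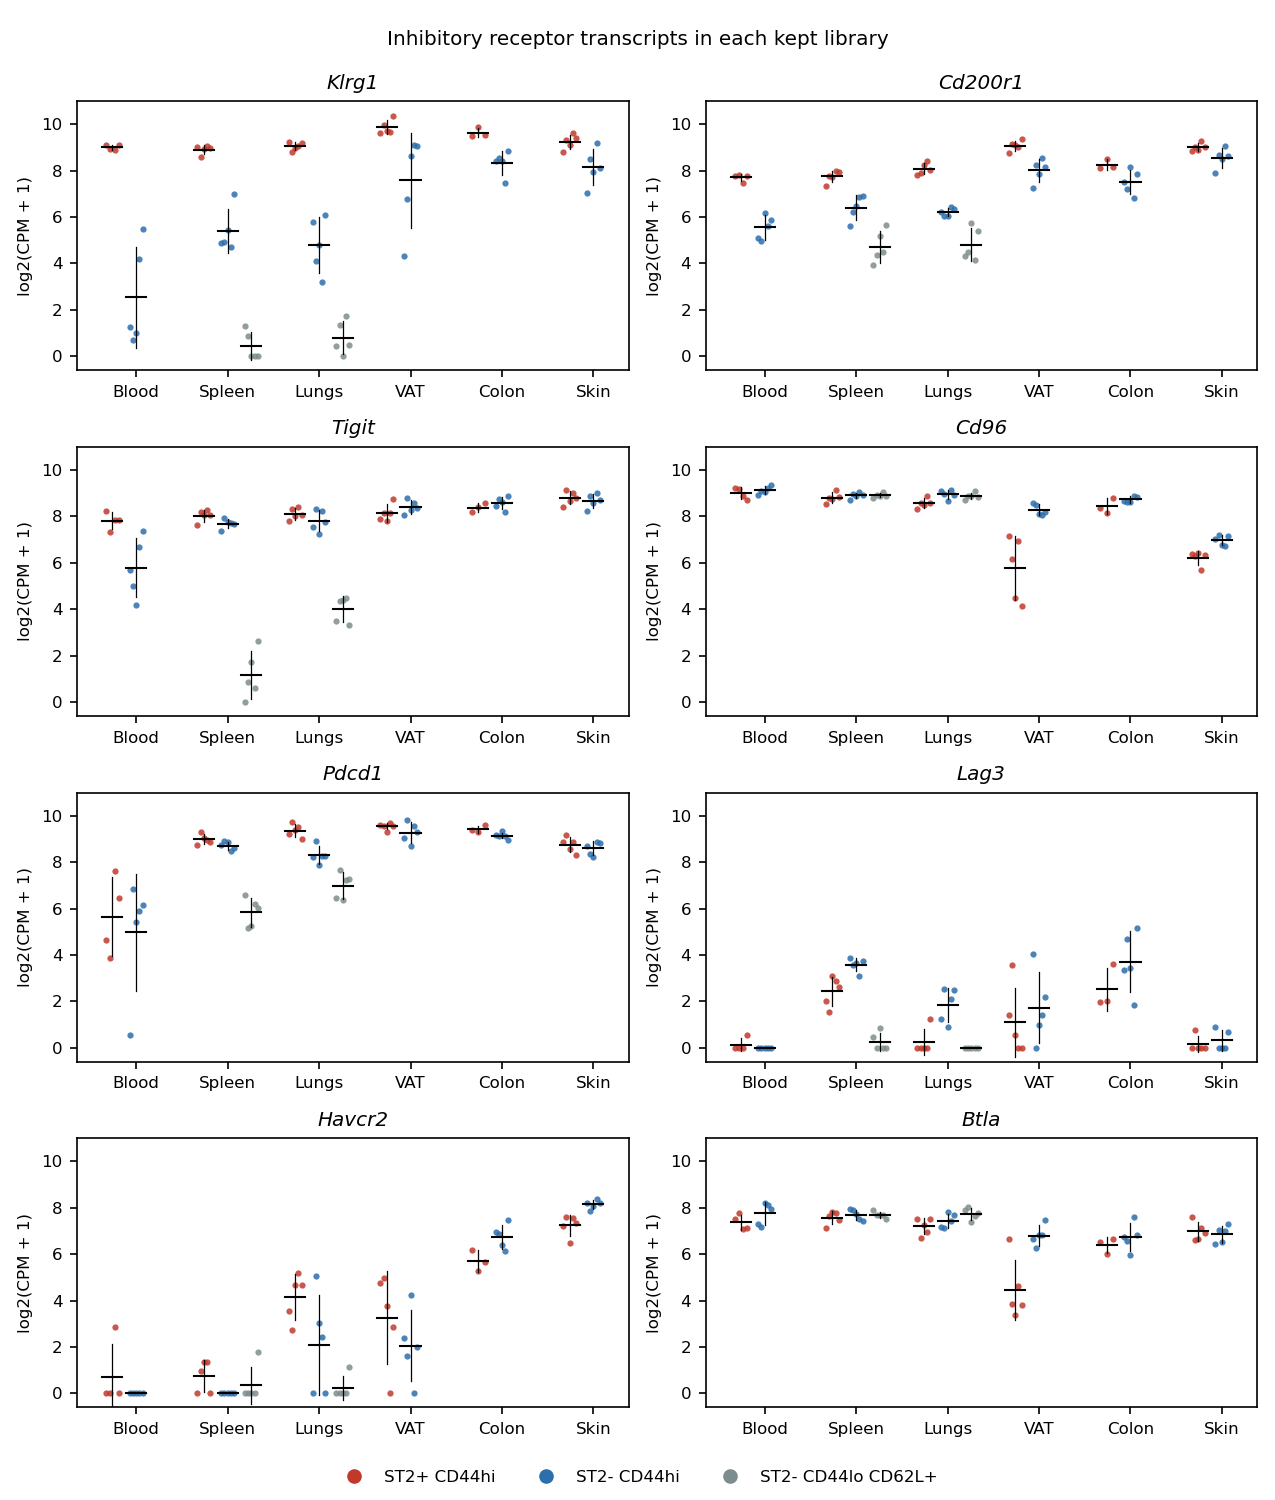
Each panel shows 1 receptor gene, with tissue on the x axis and log2(CPM + 1) on the y axis; each point is a library (red ST2+ CD44hi, blue ST2- CD44hi, grey CD44lo CD62L+), horizontal bars are group means and vertical lines are ± 1 SD. Klrg1 sits between 378.7 and 1302 CPM in every ST2+ library and at 2.28 CPM or below in every resting library, while Cd96 and Btla stay high in resting Tregs.

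The first comparison asked which of the receptors differed between ST2+ and ST2- CD44hi Tregs of the same tissue. Klrg1 and Cd200r1 were higher in ST2+ Tregs of blood, spleen and lungs, Cd200r1 also in VAT, and Tigit in blood. Cd96 and Btla were lower in ST2+ Tregs of VAT. Pdcd1, Lag3 and Havcr2 passed the test in none of the 6 tissues. A gene was called when its fold change was at least 1.5 and its Benjamini-Hochberg adjusted p from edgeR's quasi-likelihood test was at most 0.05 over the 13191 genes. By this rule 10 of 48 receptor-by-tissue values were called. In blood, 3 receptors were called higher where 2.34% of all genes were called higher, and none lower (1.72%). In spleen 2 were called higher (0.341% of all genes) and none lower (0.00758%), and in lungs 2 higher (0.493%) and none lower (0.258%). In VAT 1 was called higher (1.27%) and 2 lower (1.86%). No receptor was called in colon (0.0303% of all genes higher, 0.0379% lower) or skin (0.0910% higher, 0.136% lower). At an unadjusted p under 0.05 there were 2 in colon (Klrg1 and Cd200r1) and 1 in skin (Cd96). With a filter of 1 CPM in 50% of libraries, 451 of 10408 genes had such a p in colon and 761 in skin. Voom with quality weights, which the authors used, called Klrg1 in colon (adjusted p = 0.0208) and Havcr2 in skin (adjusted p = 0.039). In colon, with 3 ST2+ libraries, voom called 295 of all genes where edgeR called 9, so the lack of calls there depends on the test.

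Klrg1 encodes a C-type lectin-like receptor for cadherins. In blood, its level was 545.9, 485.1, 469.8 and 549.4 CPM in the ST2+ Tregs of mice 2 to 5, and 1.36, 0.644, 1.01, 17.5 and 44.4 CPM in the ST2- Tregs of mice 1 to 5. The groups did not overlap, and the log2 fold change was 5.35 ± 0.624 (SE, adjusted p = 1.86e-08). In such bulk libraries, fewer cells that carry a transcript and less of it per cell cannot be told apart. In spleen, ST2+ Tregs of mice 1 to 5 had 518.7, 378.7, 485.6, 528.4 and 497.9 CPM and ST2- Tregs 28.5, 29.1, 42.3, 25.4 and 127.1 CPM, again without overlap (3.24 ± 0.525, adjusted p = 0.00017). In lungs the ST2+ values were 602.9, 442.7, 500.9, 539.2 and 582.8 CPM and the ST2- values 54.7, 16.3, 26.8, 8.22 and 68.0 CPM (3.93 ± 0.552, adjusted p = 4.67e-06). The lung groups did not overlap either, and in all 3 of these tissues the highest ST2- value was that of mouse 5.

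In VAT, colon and skin the ST2- Tregs also carried Klrg1. Mouse number followed age, from 16.6 weeks (mouse 1) to 18.6 weeks (mouse 5), and a link of Klrg1 to age was not tested. VAT ST2- libraries came from 93 to 220 sorted cells and VAT ST2+ libraries from 220. The 5 VAT ST2- libraries differed widely among themselves, at 18.8, 109.4, 392.4, 544.2 and 540.1 CPM for mice 1 to 5, against 780.0, 1010, 838.0, 812.4 and 1302 CPM in ST2+ Tregs of the same mice. These groups did not overlap, and the difference of 1.56 ± 0.484 missed the threshold (adjusted p = 0.0536); with the mouse as a replicate block it was 1.70 and passed (adjusted p = 0.0161), as it did under voom (adjusted p = 0.000401). In colon, ST2+ Tregs of mice 1, 3 and 4 had 719.6, 929.7 and 743.0 CPM, above the 174.4 to 456.2 CPM of the 5 ST2- libraries (1.24 ± 0.536, adjusted p = 0.87, unadjusted p = 0.0239). In skin, 444.7 to 790.1 CPM in ST2+ Tregs overlapped with 130.6 to 579.6 CPM in ST2- Tregs (0.95 ± 0.48, adjusted p = 0.603). Klrg1 was nevertheless higher in the ST2+ than in the ST2- library of the same mouse in 27 of 27 pairs over the 6 tissues.

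Cd200r1 encodes the receptor for CD200, and its engagement restrains myeloid cells and T cells. It was higher in ST2+ Tregs in 27 of 27 same-mouse pairs of kept libraries too. The blood ST2+ library of mouse 1, left out for its depth of 488666 counts, held 3 counts of Cd200r1 (6.14 CPM of all counts), below the 33.1 CPM of the ST2- library of that mouse. In blood, the ST2+ values of mice 2 to 5 were 216.0, 224.2, 177.7 and 215.1 CPM and the ST2- values of mice 1 to 5 were 33.1, 30.3, 71.9, 47.8 and 58.4 CPM (2.11 ± 0.28, adjusted p = 4.02e-07). In lungs, 226.8, 240.8, 301.1, 338.9 and 258.0 CPM stood against 73.3, 65.2, 65.4, 86.1 and 81.3 CPM (1.88 ± 0.264, adjusted p = 4.67e-06). Neither pair of groups overlapped. The spleen values were 162.2 to 248.5 CPM in ST2+ Tregs and 47.8 to 117.7 CPM in ST2- Tregs (1.3 ± 0.258, adjusted p = 0.00374), and the call was lost without mouse 2 (adjusted p = 0.0847) and with all 70 libraries (adjusted p = 0.0777). In VAT, 435.5, 557.9, 549.9, 518.6 and 651.8 CPM in ST2+ Tregs all exceeded 152.9, 300.1, 229.0, 369.6 and 284.0 CPM in ST2- Tregs (1.02 ± 0.252, adjusted p = 0.0091). This call was lost without mouse 3 (adjusted p = 0.0564) and without mouse 5 (adjusted p = 0.0638), and with all 70 libraries (adjusted p = 0.0775). Colon (307.8 ± 49.5 against 191.2 ± 69.7 CPM, n = 3 and 5, adjusted p = 0.82, unadjusted p = 0.0196) and skin (516.4 ± 63.6 against 383.5 ± 105.3 CPM, n = 5 each, adjusted p = 0.707) overlapped between populations.

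Tigit and Cd96 encode receptors of the nectin-binding family, which compete with the activating receptor CD226 for CD155 (Pvr). Tigit differed by ST2 in blood, where ST2+ values of 298.0, 160.4, 229.9 and 226.9 CPM in mice 2 to 5 stood against ST2- values of 51.2, 30.9, 17.1, 100.9 and 165.0 CPM in mice 1 to 5. The highest ST2- library, that of mouse 5, lay above the lowest ST2+ library, and the log2 fold change was 1.65 ± 0.318 (adjusted p = 0.000515); fitted on these 2 groups alone the adjusted p was 0.188. In the other 5 tissues its log2 fold change lay between -0.24 in VAT and 0.36 in spleen, with adjusted p-values of 0.754 to 1.0.

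Cd96 showed the opposite direction. In VAT, ST2+ Tregs of mice 1 to 5 had 140.0, 71.2, 21.5, 120.8 and 16.7 CPM of Cd96 and ST2- Tregs 383.4, 361.6, 271.3, 267.6 and 289.1 CPM. The groups did not overlap, all 5 mice were lower in ST2+ Tregs, and the log2 fold change was -2.07 ± 0.243 (adjusted p = 1.66e-08; 0.0654 when the 2 VAT groups were fitted alone). Skin values also did not overlap, at 50.6 to 85.8 CPM in ST2+ and 104.2 to 143.8 CPM in ST2- Tregs, but the difference of -0.74 ± 0.244 did not pass (adjusted p = 0.279, unadjusted p = 0.00345). Over all tissues Cd96 was lower in the ST2+ library in 24 of 27 same-mouse pairs.

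Btla encodes a receptor for the TNF receptor family member HVEM (Tnfrsf14). In VAT, its ST2+ values were 99.6, 13.7, 9.34, 23.5 and 13.2 CPM in mice 1 to 5, and its ST2- values were 98.6, 75.9, 114.2, 112.1 and 176.1 CPM. Mouse 1 had nearly the same level in both populations, and the other 4 mice were lower in ST2+ Tregs (log2 fold change -1.82 ± 0.331, adjusted p = 0.000192; 0.22 when the 2 VAT groups were fitted alone). In the other 5 tissues its differences lay between -0.43 in colon and 0.15 in skin and none passed (adjusted p = 0.536 to 1.0).

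Because VAT ST2+ libraries also held more myeloid transcripts, and up to 80.9 CPM of the NK cell gene Ncr1, the VAT values were computed again without the 4 VAT libraries that had over 20 CPM of Csf1r, Ncr1, Cd8a or Cpa3 (3 ST2+ and 1 ST2-), a choice made after the values were seen. Cd96 was still called (-1.90 ± 0.298, adjusted p = 0.000131). Cd200r1 kept its size but not its call (1.08 ± 0.358, adjusted p = 0.164), and Btla came to -1.10 ± 0.385 (adjusted p = 0.201).

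**Figure D2:**
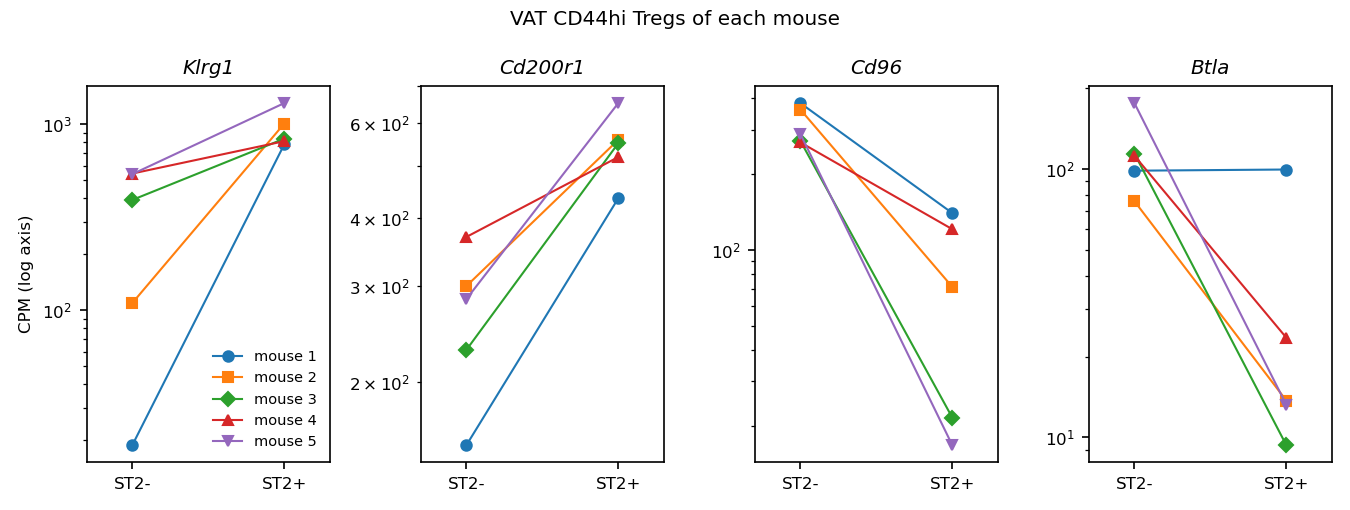
CPM on a log axis in ST2- and ST2+ CD44hi Tregs of VAT, with 1 line per mouse (n = 5). Klrg1 and Cd200r1 are higher in the ST2+ library of all 5 mice and Cd96 is lower in all 5, while Btla is lower in 4 mice and in mouse 1 stands at 99.6 CPM in ST2+ and 98.6 CPM in ST2- Tregs.

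Pdcd1, Lag3 and Havcr2 had no call by ST2. Pdcd1, which encodes the receptor PD-1, lay at 506.6 to 851.0 CPM in lung ST2+ and 230.7 to 484.2 CPM in lung ST2- Tregs without overlap, but the difference of 1.04 ± 0.38 did not pass (adjusted p = 0.254), although it did under voom (adjusted p = 0.000241) and in a fit of these 2 groups alone (adjusted p = 0.00321). In the other tissues its log2 fold change lay between 0.17 in skin and 0.52 in blood. Lag3, which encodes a CD4-like receptor for MHC class II, had 3.01, 1.95, 7.52, 6.41 and 5.14 CPM in spleen ST2+ Tregs of mice 1 to 5 and 13.7, 10.7, 11.5, 7.61 and 12.2 CPM in ST2- Tregs. All 5 mice were lower in ST2+ Tregs and the groups did not overlap, yet with 57 and 140 counts in all the fitted difference of -1.20 ± 1.12 did not pass (adjusted p = 1.0). In lungs Lag3 had 3 counts in ST2+ and 27 in ST2- Tregs, a ratio of 9.6 (2.95 to 49.4), and was lower in all 5 mice. It did not pass (adjusted p = 0.322) except under voom (adjusted p = 0.00415). Havcr2, which encodes TIM-3, stood higher in skin ST2- Tregs (230.8 to 337.1 CPM) than in ST2+ Tregs (88.4 to 195.4 CPM) without overlap, and the difference of -0.87 ± 0.715 did not pass either (adjusted p = 0.876).

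**Figure D3:**
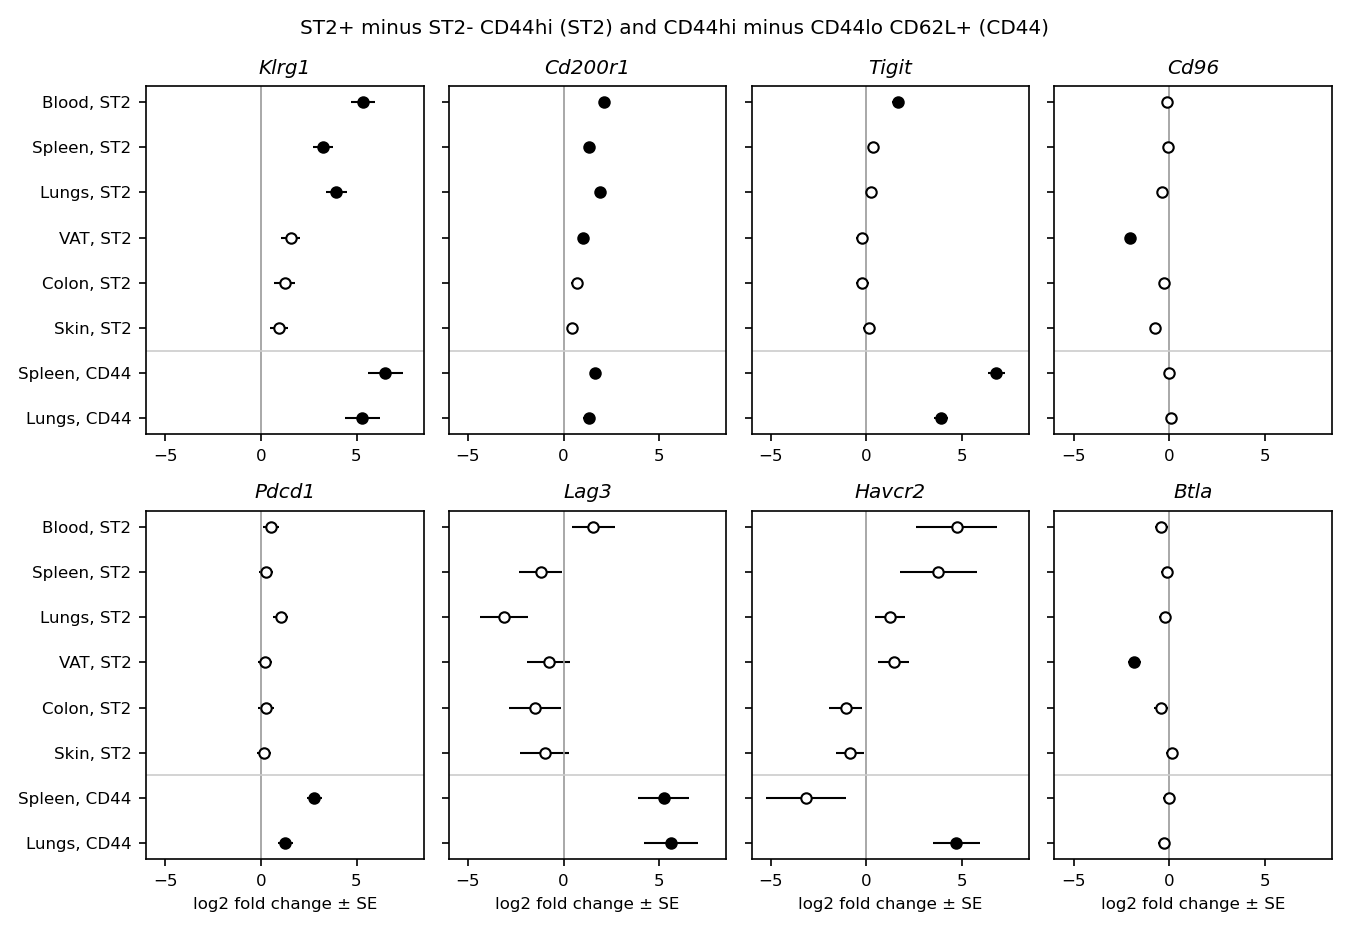
Log2 fold change ± SE of each receptor for ST2+ minus ST2- CD44hi Tregs in 6 tissues (upper 6 rows of a panel) and for ST2- CD44hi minus CD44lo CD62L+ Tregs in spleen and lungs (lower 2 rows); filled points passed the test. Klrg1 runs from 5.35 in blood to 0.95 in skin, and the filled points of Cd96 and Btla are in VAT and to the left of 0; fitted values of Lag3 and Havcr2 in groups with few or no counts depend on the prior count and are not bounds.

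The interaction test asked whether a receptor's ST2 difference itself differed among the 6 tissues. It was called for 3 of the 8 receptors, where 1.39% of all genes were called. These were Klrg1 (adjusted p = 0.000408), whose difference ran from 5.35 in blood to 0.95 in skin, Cd96 (adjusted p = 0.000512), and Cd200r1 (adjusted p = 0.0166), whose difference ran from 2.11 in blood to 0.43 in skin. Tigit (adjusted p = 0.0572) and Btla (adjusted p = 0.0756) lay just outside the threshold, and with the mouse as a replicate block they passed at 0.0215 and 0.0499, which made 5 receptors. Havcr2 (0.232), Lag3 (0.764) and Pdcd1 (0.929) did not pass. Leaving out mouse 2 or mouse 3 left 1 receptor called, and without mouse 3 the test called 39 of all genes. The Klrg1 call was lost without mouse 3 (adjusted p = 0.0533) and the Cd96 call without mouse 2 (adjusted p = 0.0527). The Cd200r1 call was lost without mouse 2, 3, 4 or 5 (adjusted p = 0.202, 0.127, 0.104 and 0.0833), and with all 70 libraries (adjusted p = 0.21).

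The second comparison set ST2- CD44hi Tregs against resting CD44lo CD62L+ Tregs in spleen and lungs. Klrg1, Cd200r1, Tigit, Pdcd1 and Lag3 were higher in the CD44hi population of both tissues, and Havcr2 in that of the lungs. Cd96 and Btla did not pass in either tissue. Of 16 values 11 were called, all higher. In spleen these were 5 receptors, where 4.33% of all genes were called higher and 0.637% lower, and in lungs 6 receptors (4.84% higher, 0.713% lower). Klrg1, Cd200r1, Tigit, Pdcd1 and Lag3 were higher in the CD44hi library of the same mouse in 10 of 10 pairs.

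Tigit showed the clearest step. In spleen, resting Tregs of mice 1 to 5 had 0, 0.82, 2.35, 0.534 and 5.22 CPM and ST2- CD44hi Tregs 164.0, 240.4, 214.3, 211.8 and 199.8 CPM. In lungs, resting Tregs had 10.1, 19.4, 20.2, 21.6 and 8.98 CPM and CD44hi Tregs 183.3, 319.2, 150.1, 302.6 and 216.0 CPM. Neither pair of groups overlapped, with log2 fold changes of 6.78 ± 0.445 (adjusted p = 4.98e-18) and 3.89 ± 0.348 (adjusted p = 3.45e-13). Resting Tregs of the lungs had more Tigit than those of the spleen, without overlap (3.07 ± 0.496, adjusted p = 9.79e-06), and this was the 1 receptor called between the resting populations, where 3.26% of all genes were called.

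Klrg1 was nearly absent from resting Tregs. It had 6 counts in all in the 5 resting spleen libraries, 3 of which were at 0, and 9 counts in the 5 resting lung libraries. Against 50.5 ± 43.3 and 34.8 ± 25.5 CPM in ST2- CD44hi Tregs (n = 5 each) the log2 fold changes were 6.51 ± 0.927 (adjusted p = 3.85e-07) and 5.29 ± 0.913 (adjusted p = 2.51e-05), the latter lost under voom (adjusted p = 0.11). Cd200r1 was present in resting Tregs, at 14.3 to 49.4 CPM in spleen and 16.5 to 52.4 CPM in lungs, and was higher in CD44hi Tregs by 1.65 ± 0.274 (adjusted p = 1.06e-05) and 1.3 ± 0.276 (adjusted p = 0.000736). Its highest resting library lay above its lowest CD44hi library in spleen, and the lung groups did not overlap.

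Pdcd1 lay at 95, 34.4, 36.8, 71.6 and 63.4 CPM in resting spleen Tregs and 424.3, 474.0, 462.5, 350.8 and 386.6 CPM in CD44hi Tregs (2.8 ± 0.409, adjusted p = 7.15e-07). In lungs the difference was smaller, at 133.8 ± 50.6 against 325.2 ± 94.4 CPM (n = 5 each, 1.28 ± 0.388, adjusted p = 0.0316), and the call was lost on leaving out any 1 of the 5 mice, with adjusted p-values of 0.0529, 0.0674, 0.0953, 0.0801 and 0.119 without mice 1 to 5. Lag3 had 140 counts in spleen CD44hi and 3 in resting libraries, a ratio of 45.3 (95% exact interval 15.2 to 222.2, which covers counting error alone; adjusted p = 0.00865, and 0.0605 without mouse 5). In lungs it had 27 and 0 counts, at least 10.5-fold higher in CD44hi Tregs, taking 3 counts over the group as the limit that a count of 0 allows (adjusted p = 0.0065). Havcr2 had 73 and 3 counts in lungs, a ratio of 28.3 (9.3 to 140.2, adjusted p = 0.011). Of these 73 counts 48 came from mouse 2, and the call was lost without mouse 2 (adjusted p = 0.292) and without mouse 3 (adjusted p = 0.0571).

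Cd96 and Btla stood apart from this pattern. Cd96 had 478.0 ± 28.7 CPM in resting and 478.6 ± 40.9 CPM in CD44hi Tregs of spleen (n = 5 each), a log2 difference of 0.00 with a 95% interval of -0.44 to 0.45. In lungs the difference was 0.08 (-0.37 to 0.53). Btla differed by 0.00 in spleen (-0.60 to 0.60) and by -0.29 in lungs (-0.89 to 0.31).

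The third comparison set each tissue against the spleen within a population. These contrasts share the spleen libraries. Blood and spleen were not digested with collagenase whereas lungs, VAT, colon and skin were, and only spleen and lungs were magnetically enriched for CD4+ T cells. Kept blood ST2+ libraries came from 55 to 220 sorted cells and spleen ST2+ libraries from 220. Tissue and preparation therefore cannot be told apart, in blood as in the digested tissues. Of 88 values 35 were called. Among ST2+ Tregs, 2 receptors were called in blood (4.21% of all genes in either direction), 1 in lungs (4.90%), 5 in skin (29.0%), 4 in VAT (11.3%) and 2 in colon (10.4%). Among ST2- CD44hi Tregs, 5 were called in blood (3.57%), 1 in lungs (4.12%), 7 in skin (30.9%), 3 in VAT (5.96%) and 4 in colon (11.1%). The share of all genes called in skin was thus far above that in the other tissues, and the receptors' counts there are read against it.

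**Figure D4:**
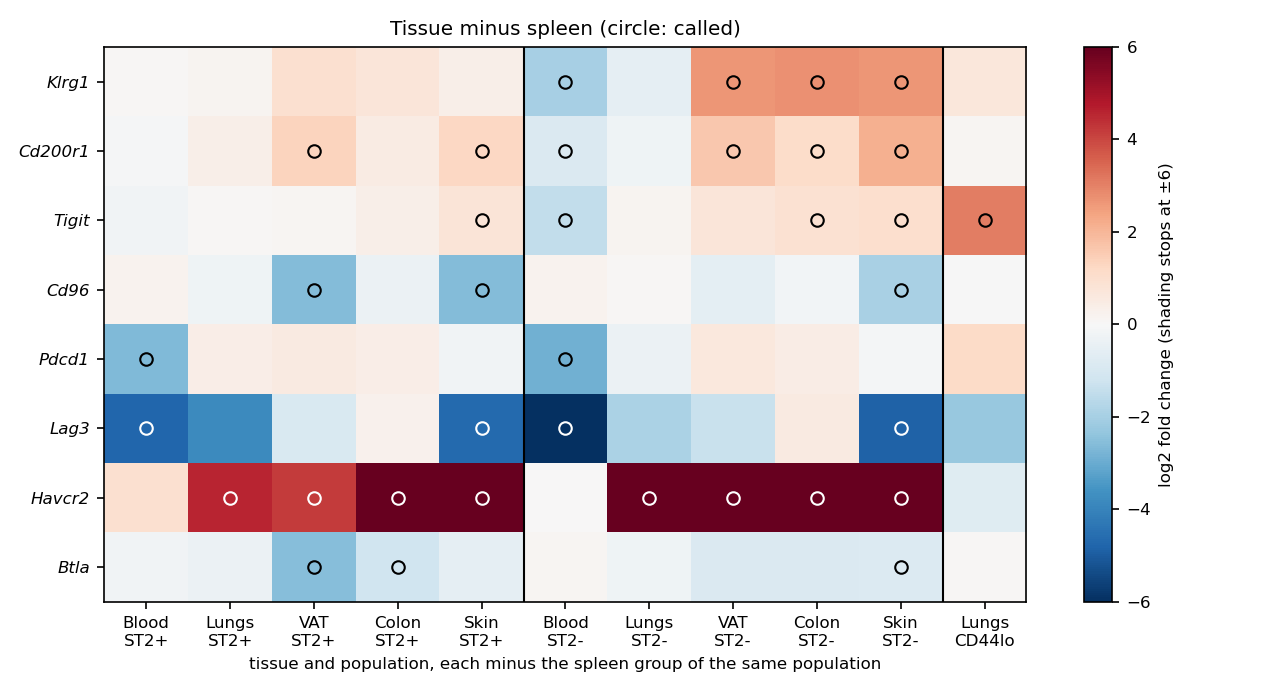
Log2 fold change of each receptor (rows) in each tissue and population (columns) minus the spleen group of the same population, with shading limited to ± 6 and circles on called values. Havcr2 is circled in both CD44hi populations of the colon, skin, lungs and VAT, and Pdcd1 in blood; Havcr2 values in ST2- columns are fitted against spleen libraries at 0 counts and are not bounds.

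Havcr2 was higher than in spleen in each of the 4 digested tissues, for both CD44hi populations. It had 0 counts in all 5 spleen and all 5 blood libraries of ST2- CD44hi Tregs, and in skin ST2- Tregs of mice 1 to 5 it reached 293.9, 230.8, 273.5, 337.1 and 294.7 CPM. The skin level was at least 1187-fold higher than the spleen level (adjusted p = 6.4e-10). In colon ST2- Tregs it lay at 121.7, 117.2, 82.7, 69.6 and 175.9 CPM, at least 457.6-fold higher (adjusted p = 5.39e-08). Lungs and VAT held less and were uneven, with 0, 32.6, 7.13, 4.39 and 0 CPM in lung ST2- Tregs of mice 1 to 5 and 4.26, 2.05, 18.2, 0 and 3.05 CPM in VAT ST2- Tregs. They were at least 32.4-fold (adjusted p = 0.00178) and at least 23.9-fold (adjusted p = 0.00601) higher than spleen, and lost their calls without mouse 2 (adjusted p = 0.0915) and without mouse 3 (adjusted p = 0.164), respectively. The VAT call was also lost in a fit of the groups compared alone (adjusted p = 0.0686). In ST2+ Tregs, from 0.832 ± 0.801 CPM in spleen (n = 5, 9 counts in all), Havcr2 rose by 4.58 ± 1.02 in lungs (adjusted p = 0.00171), 4.18 ± 1.02 in VAT (adjusted p = 0.00289), 5.98 ± 1.06 in colon (adjusted p = 6.7e-05) and 7.54 ± 1.05 in skin (adjusted p = 7.88e-08). Of these, VAT overlapped with spleen through mouse 4, which was at 0, and lost its call under voom (adjusted p = 0.109) and in a fit of the groups compared alone (adjusted p = 0.0738). Its order of levels over the 14 groups ran from skin ST2- (286.0 ± 38.6 CPM) through skin ST2+ (156.7 ± 43.1) and colon ST2- (113.4 ± 41.4) to colon ST2+ (53.0 ± 17.6). Skin ST2- did not overlap with skin ST2+, nor colon ST2+ with the next group, while the neighbours between them overlapped.

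Lag3 was lower than in spleen in blood and skin of both CD44hi populations. In blood ST2- Tregs it had 0 counts against 140 in spleen, at least 34.8-fold lower (adjusted p = 0.00108). In skin ST2- Tregs it had 3 counts, a spleen to skin ratio of 31.0 (10.4 to 152.1, adjusted p = 0.00374). Skin ST2+ Tregs had 1 count against 57 in spleen, a ratio of 39.2 (6.76 to 1576, adjusted p = 0.00721), and lost the call without the libraries that held markers of other cells (adjusted p = 0.132). The same comparison in blood, 1 against 57 counts (ratio 39.6, 6.83 to 1593, adjusted p = 0.0496), lost its call on leaving out any 1 mouse (adjusted p up to 0.267). The call was also lost with sorted cells as a covariate (adjusted p = 0.129), with no filter (0.0839) and in a fit of those groups alone (0.0827). In lung ST2+ Tregs, 3 against 57 counts did not pass (adjusted p = 0.065) but did with the mouse as a replicate block (adjusted p = 0.031). The colon levels, 9.27, 25.0, 9.93, 2.61 and 35.2 CPM in ST2- Tregs of mice 1 to 5, overlapped with the spleen levels.

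Cd96 was reduced in skin of both populations and in VAT of ST2+ Tregs. Its level was 453.2 ± 74.2 CPM in spleen, 74.0 ± 56.1 in VAT and 74.7 ± 13.9 in skin of ST2+ Tregs (n = 5 each). These differences were -2.59 ± 0.247 in VAT (adjusted p = 2.28e-12) and -2.59 ± 0.248 in skin (adjusted p = 5.79e-13). In ST2- Tregs it was 478.6 ± 40.9 CPM in spleen and 125.7 ± 18.0 in skin (-1.93 ± 0.24, adjusted p = 1.87e-09). None of these groups overlapped with its spleen group, and all 3 calls held under each of the 15 other settings tried. In VAT ST2- Tregs it was 314.6 ± 54.0 CPM, without overlap with spleen and lower in all 5 mice, but the difference of -0.60 ± 0.229 did not pass (adjusted p = 0.0991). It did under DESeq2 (0.0449), voom (0.000155), in a fit of the groups compared alone (0.00776) and without the libraries with other cell markers (0.045). Blood, lungs and colon stayed within 0.37 of spleen on the log2 scale and did not pass.

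Btla fell with Cd96 in VAT ST2+ Tregs (31.9 ± 38.2 against 192.8 ± 34.0 CPM, n = 5 each, -2.56 ± 0.335, adjusted p = 2.84e-08). It was also lower in colon ST2+ Tregs (84.8 ± 18.7 CPM, n = 3, -1.18 ± 0.377, adjusted p = 0.0318), a call lost without mouse 2, 3, 4 or 5 (adjusted p = 0.0576, 0.237, 0.116 and 0.0584). In skin ST2- Tregs it was lower by -0.82 ± 0.312 (adjusted p = 0.0341), lost without mouse 2, 3 or 4 (adjusted p = 0.0803, 0.0837 and 0.0687). Colon ST2- Tregs (-0.87 ± 0.312) missed the threshold at an adjusted p of 0.0545 and passed with the mouse as a replicate block (0.0453). Over the 14 group means the log2 levels of Cd96 and Btla had a Pearson correlation of 0.752.

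For Klrg1, 4 of 5 tissues were called against spleen in ST2- Tregs and none in ST2+ Tregs. In ST2- Tregs it was higher than in spleen by 2.66 ± 0.516 in VAT (adjusted p = 0.000205), 2.73 ± 0.518 in colon (adjusted p = 9.47e-05) and 2.65 ± 0.517 in skin (adjusted p = 4.23e-05), and lower in blood (-2.01 ± 0.593, adjusted p = 0.0351). VAT and blood overlapped with spleen, and the VAT call was lost in a fit of those groups alone (adjusted p = 0.0544). The blood call was lost without mouse 1, 2, 3 or 4 (adjusted p = 0.0581, 0.141, 0.199 and 0.0523). It was also lost under voom (adjusted p = 0.42), in a fit of those groups alone (0.298) and with all 70 libraries (0.0569). In ST2+ Tregs its mean ran from 481.9 CPM in spleen to 948.6 CPM in VAT, and no tissue passed (adjusted p = 0.167 to 1.0), although VAT and colon did not overlap with spleen and passed under voom (adjusted p = 0.0055 and 0.046). Cd200r1 was higher than in spleen in VAT and skin of both populations, by 1.32 ± 0.253 (adjusted p = 9.43e-05) and 1.25 ± 0.253 (adjusted p = 8.23e-05) in ST2+ and by 1.60 ± 0.259 (adjusted p = 8.35e-06) and 2.12 ± 0.263 (adjusted p = 1.72e-09) in ST2- Tregs. In ST2- Tregs it was also higher in colon (1.11 ± 0.258, adjusted p = 0.00168), and it was lower in blood (-0.87 ± 0.267, adjusted p = 0.0474). This blood call was lost without mouse 2, 4 or 5 (adjusted p = 0.201, 0.178 and 0.157), under voom (0.164) and in a fit of those groups alone (0.148). With all 70 libraries (adjusted p = 0.187), no filter (0.0537) or without the libraries with other cell markers (0.0695) it was lost as well.

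Pdcd1 was lower in blood than in spleen in both CD44hi populations, and Tigit in ST2- Tregs. Pdcd1 had 23.9, 13.7, 194.9 and 87.9 CPM in blood ST2+ Tregs of mice 2 to 5 and 0.453, 112.7, 42.2, 58.4 and 70.6 CPM in blood ST2- Tregs of mice 1 to 5, all under the 350.8 to 637.0 CPM of the spleen CD44hi libraries. The differences from spleen were -2.66 ± 0.442 (adjusted p = 4.42e-05) and -2.90 ± 0.416 (adjusted p = 1.61e-06). Tigit was lower in blood than in spleen in ST2- Tregs (-1.50 ± 0.304, adjusted p = 0.000746), with overlap, and not in a fit of those groups alone (adjusted p = 0.081). It was higher in skin of ST2+ (0.78 ± 0.291, adjusted p = 0.0322) and ST2- Tregs (1.01 ± 0.293, adjusted p = 0.00551) and in colon ST2- Tregs (0.90 ± 0.292, adjusted p = 0.0311). The skin ST2+ call was lost without mouse 1, 2 or 4 (adjusted p = 0.0605, 0.0952 and 0.0915) and without the libraries with other cell markers (adjusted p = 0.0737), 3 of which were skin ST2+ libraries, and the colon call without any 1 of the 5 mice (adjusted p = 0.0672 to 0.0863).

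Tigit, Cd96, Btla and Cd200r1 lie within 2.47 Mb of chromosome 16 (GRCm38, chr16:43648867-46120251), a span with 26 tested genes. By the GENCODE M21 annotation, Tigit is at chr16:43648867-43664146 on the minus strand, Cd200r1 at chr16:44765736-44794978 on the plus strand, Btla at chr16:45224315-45257670 on the plus strand and Cd96 at chr16:46035657-46120251 on the minus strand. Klrg1 (chr6:122270596-122282882, minus strand) and Lag3 (chr6:124904361-124911705, minus strand) share chromosome 6. Pdcd1 is at chr1:94038305-94052553 (minus strand) and Havcr2 at chr11:46454935-46481255 (plus strand). Counts were taken over exons, and no exon of another annotated gene overlapped theirs.

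RefSeq gave the 250 bases before its own annotated start for 5 of the 8 genes. Those of Cd96, Btla and Havcr2 are printed in the direction of transcription. Cd96 and Btla were both called lower in VAT than in spleen among ST2+ Tregs, and Havcr2 differed most by tissue. Capitals mark matches to the letters searched for GATA factors (AGATAA or AGATAG with A first and TGATAA or TGATAG with T first), AP-1 (TGANTCA) and ETS factors (AGGAAG) on either strand. They are chr16:46120249-46120498 (minus strand), chr16:45224087-45224336 (plus strand) and chr11:46454681-46454930 (plus strand) of GRCm38.
Cd96: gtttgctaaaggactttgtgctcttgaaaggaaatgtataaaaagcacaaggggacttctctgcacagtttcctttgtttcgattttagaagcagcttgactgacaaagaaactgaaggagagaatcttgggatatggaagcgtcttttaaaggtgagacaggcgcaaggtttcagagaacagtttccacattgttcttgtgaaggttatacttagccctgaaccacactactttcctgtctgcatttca
Btla: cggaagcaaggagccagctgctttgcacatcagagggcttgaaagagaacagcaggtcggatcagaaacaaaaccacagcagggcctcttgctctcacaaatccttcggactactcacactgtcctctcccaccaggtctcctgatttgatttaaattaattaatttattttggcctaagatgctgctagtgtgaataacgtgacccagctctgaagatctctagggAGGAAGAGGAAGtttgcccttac
Havcr2: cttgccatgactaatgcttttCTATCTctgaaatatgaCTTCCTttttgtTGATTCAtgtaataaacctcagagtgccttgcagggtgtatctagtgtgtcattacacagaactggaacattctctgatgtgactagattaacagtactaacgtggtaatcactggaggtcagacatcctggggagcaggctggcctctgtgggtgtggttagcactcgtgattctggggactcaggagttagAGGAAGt
The Cd96 window held none of these letters. The Btla window held 2 adjacent ETS matches, and the Havcr2 window held 1 GATA, 1 AP-1 and 2 ETS matches. Of the windows not printed, that of Tigit held 1 GATA match and that of Pdcd1 held 1 ETS match. Among the 32851 promoter windows of the same length, 26.5% held a GATA, 6.75% an AP-1 and 29.5% an ETS match. A match shows letters, not binding, and these data do not measure binding.

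The genes whose group means of log2(CPM + 1) over the 14 groups ran most like those of each receptor are given as a description. For Klrg1 they were Tmem159, Gnaq and Nav2 (Pearson correlation 0.976, 0.968 and 0.964), and for Cd200r1 they were Lyn, Rhoc and Lat2 (0.982, 0.973 and 0.971). For Tigit they were Maf, Ttc39c and Sdcbp2 (0.977, 0.975 and 0.962), and for Pdcd1 Cxcl10, Ccr8 and Ahi1 (0.947, 0.939 and 0.919). Gm8369, Kcnip2 and Rtp4 (0.959, 0.938 and 0.937) came first for Cd96, and Dffb, Grsf1 and Ints14 (0.953, 0.944 and 0.943) for Btla. Msrb3, Gpat3 and Tm4sf1 (0.961, 0.958 and 0.956) came first for Havcr2, and Art3, B3galt1 and Plekho1 (0.908, 0.904 and 0.896) for Lag3. Among the receptors themselves the highest value was 0.96 for Klrg1 and Cd200r1, followed by 0.876 for Klrg1 and Tigit, and the lowest was -0.692 for Cd200r1 and Cd96. The groups share mice, libraries and depth, so these values are not independent evidence.

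Genes of the same pathways were counted in lists. The ST2 counts below stand beside shares of all genes called of 0.0303% to 2.34% higher and 0.00758% to 1.86% lower over the 6 tissues, and the CD44 counts beside 4.33% and 4.84% higher and 0.637% and 0.713% lower in spleen and lungs. Of the ligands and binding partners, 13 of 15 were tested, and 2 values were called higher and 3 lower of 78 ST2 tests, with list medians of -0.43 to 0.03 by tissue beside -0.01 to 0.03 over all genes. Cd200, the ligand of CD200R1, was lower in ST2+ Tregs of blood (49.1 against 182.0 CPM, -1.89 ± 0.407, adjusted p = 0.00224) and VAT (31.4 against 108.2 CPM, -1.77 ± 0.383, adjusted p = 0.0021). In spleen (-0.44 ± 0.356, adjusted p = 1.0) and lungs (-1.11 ± 0.369, adjusted p = 0.168), where Cd200r1 was also called higher, Cd200 did not pass. Pvr, the ligand shared by TIGIT, CD96 and CD226, was lower in lung ST2+ Tregs (-1.32 ± 0.34, adjusted p = 0.0346). Pdcd1lg2, a ligand of PD-1, and Lgals3, which encodes a galectin that binds LAG-3, were higher in blood ST2+ Tregs (1.48 ± 0.339, adjusted p = 0.00426, and 1.68 ± 0.437, adjusted p = 0.0146). Of 10 signalling partners 1 value was called higher of 60 ST2 tests (Grb2 in blood, 0.61 ± 0.143, adjusted p = 0.00514; list medians -0.34 to 0.12). Of 6 activating receptors 1 value was called higher of 36 ST2 tests. It was Icos in blood (1.12 ± 0.165, adjusted p = 4.84e-06), with list medians of -0.33 to 0.29. Between CD44hi and resting Tregs 6 of 12 values were called higher, with list medians of 0.97 to 1.09 beside 0.0 over all genes. Among them was Icos in spleen (1.62 ± 0.161, adjusted p = 2.25e-11) and lungs (1.02 ± 0.157, adjusted p = 2.54e-06). In that comparison 3 of 26 values of the ligands and 1 of 20 of the signalling partners were called higher and none lower, with list medians of 0.25 to 0.7 and 0.02 to 0.12. The share for the signalling partners was about that of all genes.

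Of the other inhibitory receptors, 11 of 12 were tested, and 1 value was called higher and 1 lower of 66 ST2 tests (list medians -0.25 to 0.12). Lilrb4a was higher in blood ST2+ Tregs (23.0 against 3.61 CPM, adjusted p = 0.0221) and Lair1 lower in VAT ST2+ Tregs (0.0823 against 14.6 CPM, adjusted p = 0.0243). Of 14 differentiation factors, 10 values were called higher and 5 lower of 84 ST2 tests, with list medians of -0.16 to 0.82. Of the 10 higher values 6 were those of Gata3, 1 per tissue. Gata3 was higher in ST2+ Tregs of all 6 tissues (0.71 ± 0.133 in skin to 1.40 ± 0.135 in VAT), and Id2 in those of blood (1.29 ± 0.284, adjusted p = 0.00287) and spleen (1.24 ± 0.271, adjusted p = 0.0138). Tcf7 and Bach2, factors of less differentiated T cells, were lower in ST2+ Tregs of blood (-1.19 ± 0.339 and -2.21 ± 0.507) and VAT (-2.01 ± 0.332 and -3.24 ± 0.553) (adjusted p = 0.0286 and 0.00437 in blood, 3.76e-05 and 6.4e-05 in VAT). Between CD44hi and resting Tregs, 5 of 22 values of the other inhibitory receptors were called higher, and of 28 values of the differentiation factors 14 were called higher and 4 lower, with list medians of 0.52 to 0.71 and 1.02 to 1.08. Of the 3 paralogs of Cd200r1, which lie in the same gene family and could share reads with it, Cd200r4 reached 156.1 CPM in 1 VAT ST2- library, and Cd200r2 and Cd200r3 stayed at 19.6 CPM or below. Neither of the 2 paralogs tested was called in any of 12 ST2 tests, where the lowest adjusted p was 0.185. Against spleen, 1 of the 2 was called higher in VAT and skin of both CD44hi populations (5.96% to 30.9% of all genes called). Cd200r1 was called higher there too, and 1 paralog was called lower in VAT ST2+ and skin ST2- Tregs. Mean Cd200r4 was 9.44 CPM in spleen, 58.7 in VAT and 36.5 in skin ST2+ Tregs, and 6.67, 91.2 and 31.2 in ST2- CD44hi Tregs. How reads common to the family were assigned was not tested.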

How the data were processed

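Tregs were sorted by CD4 and YFP from live CD45.2+ cells, up to 220 per library, after magnetic enrichment of spleen and lungs and collagenase digestion of lungs, VAT, colon and skin. The authors amplified cDNA with SMART-Seq v4, sequenced single 58-base reads, aligned them with STAR to GRCm38 with Ensembl 91 genes, and counted them with HTSeq 0.4.1; the deposited values are raw counts per gene. Whether strand was used in counting is not given in the sources used here. Counting error sets the precision: 1 CPM corresponded to 1.13 to 2.82 counts, and intervals on counts (exact, 95%) and limits for a count of 0 (3 counts) cover counting error alone, since reads carried no molecular identifiers.

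Of 70 libraries, 3 with at most 1,000,000 counts were left out (blood ST2+ of mouse 1, colon ST2+ of mice 2 and 5). Of 53465 gene IDs, those of 13191 protein-coding genes that reached 1 CPM in 10% or more of the kept libraries entered the tests. All 8 receptors passed this filter, Lag3 and Havcr2 through some of the groups. The test was edgeR's quasi-likelihood test (edgeR 4.0.16, R 4.3.3) with TMM factors and 1 fit of all 14 groups, and a call needed a 1.5-fold change or more together with a p of 0.05 or less after Benjamini-Hochberg adjustment. The interaction was an F test with no fold threshold. All 8 receptors were named in every group. For each, the 3 genes with the highest correlation of group means of log2(CPM + 1) were named, with the log taken per library before averaging. From each gene list at most 4 genes were named, those called in the most ST2 comparisons. The receptors and lists were chosen with earlier results of these data known. Alternatives were RLE factors, no filter, a filter of 1 CPM in 50% of libraries, DESeq2 1.42.0, voom with quality weights (limma 3.58.1), all 70 libraries, the groups compared alone, sorted cells as a covariate, a replicate block, leaving out each mouse, and, chosen after the values were seen, leaving out 11 libraries with over 20 CPM of Csf1r, Ncr1, Cd8a or Cpa3. The scripts were tested on simulated data.

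The replicate number is the mouse, so the numbers pair the libraries. Over 6515 genes with over 32 CPM on average, deviations from the group means correlated between the ST2+ and ST2- libraries of the same mouse with a mean of 0.116 (27 pairs, -0.00224 to 0.318, 14 above 0.1), against -0.0275 for different mice. No 2 libraries of a group were identical (129 pairs, 0 equal).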

Additional observations from a re-analysis of the deposited data

Results flagged for a closer look

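Among 104 groups of 4 or 5 libraries tested for a library far from the others, 14 stood out. The chance rate of about 1 in 20 cannot be applied to scarce transcripts. With no counts in the other libraries of a group, 1 library with any count stands out. The 14 are therefore listed as a description, not as an excess over chance. For Klrg1 these were the spleen ST2+ library of mouse 2 at 378.7 CPM (others 485.6 to 528.4) and the spleen ST2- library of mouse 5 at 127.1 CPM (others 25.4 to 42.3). For Cd96 it was the skin ST2+ library of mouse 4 at 50.6 CPM (others 76.8 to 85.8), and for Btla the VAT ST2+ library of mouse 1 at 99.6 CPM (others 9.34 to 23.5).

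The other 10 concerned scarce transcripts. Lag3 stood out in VAT at 10.7 CPM in the ST2+ library of mouse 2 (others 0 to 1.65) and at 15.6 CPM in the ST2- library of mouse 1 (others 0 to 3.56). Its level was 0.473 CPM (1 count) in blood ST2+ of mouse 5, 1.33 CPM (3 counts) in lung ST2+ of mouse 5 and 0.686 CPM (1 count) in skin ST2+ of mouse 2, with all other libraries of those groups at 0. Havcr2 stood out at 32.6 CPM in lung ST2- of mouse 2 (others 0 to 7.13) and 18.2 CPM in VAT ST2- of mouse 3 (others 0 to 4.26). It was at 6.23 CPM in blood ST2+ of mouse 4, at 2.41 CPM in resting spleen Tregs of mouse 5 and at 1.22 CPM in resting lung Tregs of mouse 5, again with the others at 0.

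The ST2 difference itself differed among tissues for Klrg1 (adjusted p = 0.000408), Cd200r1 (adjusted p = 0.0166) and Cd96 (adjusted p = 0.000512) by the edgeR interaction test.

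The libraries left out for depth still held receptor counts. In blood ST2+ of mouse 1 (488666 counts), 4 receptors had over 3 counts: Klrg1 at 425.6, Cd96 at 444.1, Tigit at 319.2 and Btla at 71.6 CPM of all counts. Cd200r1 had 3 counts there (6.14 CPM), against 177.7 to 224.2 CPM in the kept blood ST2+ libraries. In colon ST2+ of mouse 5 (62333 counts), 6 did, led by Klrg1 at 2086 and Pdcd1 at 770.1 CPM.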

How the results depend on the processing

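Of 874 recomputed values of called results, 797 stayed called, 77 did not, and 0 changed direction. The number of receptor values called ranged from 8 to 15 for ST2 (10 as reported), 9 to 11 for CD44 (11) and 27 to 44 for tissue (35). For the interaction (3) it was 5 under DESeq2, 5 under voom and 5 with the replicate block, and 1 to 4 on leaving out each mouse in turn. Beside the calls named with their results, the replicate block changed no other call. Over all genes, ST2 calls ranged from 106 to 899 in blood (536 as reported), 16 to 221 in spleen (46), 36 to 350 in lungs (99), 87 to 605 in VAT (413), 2 to 295 in colon (9) and 5 to 104 in skin (30), and interaction calls from 39 to 861 (184). CD44 calls ranged from 440 to 1526 in spleen (655) and 479 to 1231 in lungs (733). Against spleen, ST2+ calls ranged from 199 to 827 in blood (555), 417 to 1440 in lungs (647), 845 to 1782 in VAT (1489), 454 to 2221 in colon (1371) and 2746 to 4948 in skin (3829). ST2- calls ranged from 272 to 929 (471), 334 to 1429 (544), 442 to 1238 (786), 819 to 2364 (1460) and 3096 to 5119 (4070) in that order, and resting lung calls from 229 to 947 (430). Without the libraries with markers of other cells, no colon ST2+ library was left, so the colon ST2 comparison and the interaction could not be fitted. Depth limits Lag3 and Havcr2 most, with 0 to 3 counts in whole groups. The cause of these changes was not tested.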
